A study of Drosophila melanogaster with 20 samples.

Results

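The digestive protease genes followed here in dissected brains of Drosophila melanogaster were Jon99Fi, Jon25Biii, Jon65Aiii, yip7, alphaTry, CG18180 and CG8562. They are 7 of 11981 genes that had a probe set with a single gene symbol on the array, and each had exactly 1 probe set. They were chosen by symbol, on earlier values of these arrays that were high in young brains of the miR-34 null line, so their difference between the lines at 3 d is a description and carries no test. Gene expression was measured on Affymetrix Drosophila 2 arrays, 1 array per sample, in 20 samples of 4 groups with 5 arrays each. The groups were wild-type flies (line 5905) and miR-34 null flies (line 0110), taken after natural ageing to 3 d or 20 d. All flies were kept on cornmeal molasses agar with dry yeast at 25 °C, per the labels. Each genotype is a single line, and the effect of the missing microRNA and that of the rest of the line's background cannot be told apart. The labels do not say that the repeats of a group were separate pools of flies, so p-values measure only how far these samples spread, and that spread may be technical.

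The Jonah genes and the trypsins encode serine proteases of the chymotrypsin and trypsin fold. In the fly they are made by the epithelium of the midgut as inactive precursors, are secreted into the gut lumen and cut dietary protein there. Many lie in tandem clusters of related genes that are transcribed in the same stretch of gut, and they are used as markers of the digestive tract, not of neurons or glia. Jon99Fi, Jon25Biii, Jon65Aiii and yip7 belong to the Jonah group, alphaTry is a trypsin, and CG18180 is a predicted serine protease of the same fold. CG8562 is neither a Jonah gene nor a trypsin: it is a predicted zinc carboxypeptidase, a class of enzymes that trims amino acids from the end of a protein chain.

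The arrays were labelled as brain, and they carried the defining transcripts of brain cells in every group. The neuronal RNA-binding protein gene elav had a signal of 1045 ± 60.1 in young wild type and 1070 ± 97.4 in young null (mean ± SD over 5 arrays), and the glial transcription factor gene repo at 872 ± 46.7 and 826 ± 29.9. Signals are MAS5 units as the labels name them, a linear scale on which the median probe set of an array lay between 19.1 and 25 units. A value of a few units is therefore far below the typical probe set, and no detection call was used to say whether a transcript was present. Over the 9806 probe sets tested, arrays within a group had r between 0.989 and 0.997, and arrays of different groups reached 0.971 at most.

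The 4 Jonah genes were high on all 5 arrays of 3 d null and low to intermediate elsewhere. The Jon99Fi signal in 3 d null was 502, 488, 467, 603 and 604 units in repeats 1 to 5. In 3 d wild type it was 1.68, 0.183, 0.913, 1.07 and 1.43 units. Every 3 d null array lay far above every 3 d wild-type array, and repeats 4 and 5 of 3 d null stood above the other 3. At 20 d the Jon99Fi signal was 3.28, 4.32, 4.16, 4.7 and 3.51 units in wild type and 2.01, 0.656, 0.129, 0.674 and 2.38 in null. All 10 arrays of 20 d thus sat in the range of low values, and the wild-type arrays lay above the null arrays without overlap.

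Jon25Biii was at 338, 335, 332, 314 and 333 units in 3 d null. It was at 0.437, 4.82, 4.79, 4.67 and 5.62 in 3 d wild type. The 20 d signals of this gene were 5.28, 8.43, 7.41, 8.16 and 5.91 in wild type and 5.34, 4.18, 4.39, 5.03 and 8.6 in null. Outside 3 d null no array passed 8.6 units, and the other 3 groups overlapped with their neighbours in the order of the means.

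Jon65Aiii differed from these 2 genes in that it was also well measured in young wild type. Its signal was 618, 635, 636, 613 and 591 units in 3 d null. It was 89.6, 87.3, 79.9, 89.1 and 84.1 units in 3 d wild type. Young wild-type brains thus held Jon65Aiii at several times the median probe set, and 3 d null was 7.2 times higher on the linear scale. At 20 d the Jon65Aiii signal was lower in both lines, at 17.3, 18, 13.7, 13.5 and 16.7 in wild type and 35.1, 34, 25.3, 30.5 and 29.2 in null. The 4 groups did not overlap and were ordered 3 d null, 3 d wild type, 20 d null and 20 d wild type.

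yip7, whose product was named for binding the Yippee protein, had the same order of groups as Jon65Aiii. It was at 262, 257, 255, 241 and 251 units in 3 d null and at 18.7, 13.4, 19, 20.2 and 22.2 in 3 d wild type. At 20 d the yip7 signal was 5.53, 4.58, 5.52, 3.72 and 2.75 in wild type and 8.04, 7.07, 6.8, 7.52 and 5.58 in null. Again no neighbouring groups overlapped, although the 20 d values were all below the array medians.

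**Figure D1:**
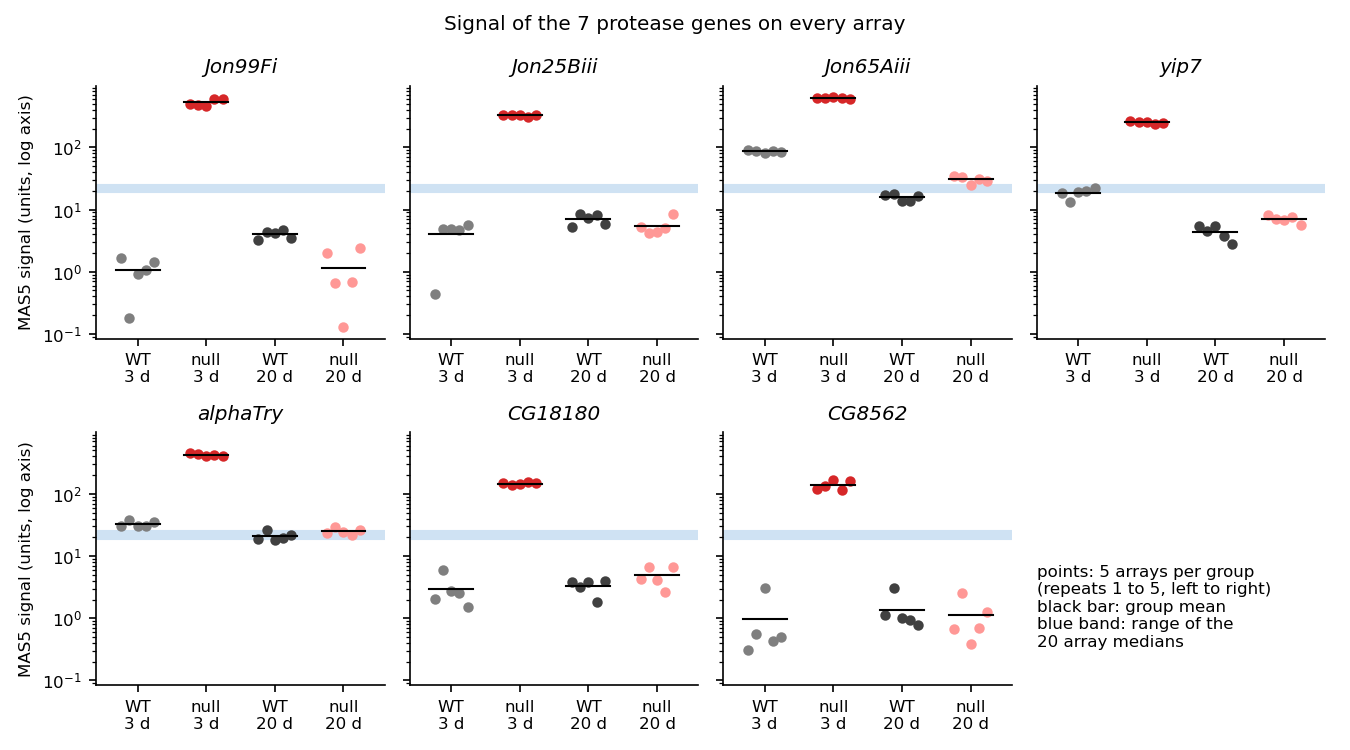
MAS5 signal of each of the 7 genes (log axis) on the 20 arrays, by line and age, with points for the 5 arrays of a group, a black bar for the group mean and a blue band for the range of the 20 array medians (19.1 to 25 units). The 5 arrays of 3 d null lie above all other arrays in every panel, and in 3 d wild type Jon65Aiii and alphaTry lie above the band.

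The trypsin gene alphaTry was at 456, 434, 406, 427 and 414 units in 3 d null and at 30.3, 37.8, 31, 30.4 and 35.1 in 3 d wild type. At 20 d its signal was 18.9, 25.8, 18.3, 19.7 and 21.6 in wild type and 23.8, 29.7, 24.6, 21.5 and 25.8 in null. The 3 d wild-type arrays lay above all 20 d arrays, and the 20 d groups overlapped. On the linear scale the 3 d null mean of alphaTry was 13.0 times the 3 d wild-type mean, close to the ratio of 13.5 for yip7.

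CG18180, the predicted serine protease, was at 148, 139, 145, 157 and 148 units in 3 d null. It was at 2.04, 5.95, 2.76, 2.59 and 1.52 in 3 d wild type. At 20 d the CG18180 signal was 3.77, 3.14, 3.88, 1.82 and 4.03 in wild type and 4.21, 6.78, 4.15, 2.67 and 6.64 in null. Apart from 3 d null no group separated from the next in the order of means.

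The carboxypeptidase gene CG8562 was at 119, 133, 168, 114 and 164 units in 3 d null and at 0.308, 0.556, 3.11, 0.436 and 0.502 in 3 d wild type. At 20 d it was at 1.11, 3.08, 1, 0.94 and 0.775 in wild type and 0.677, 2.55, 0.382, 0.701 and 1.26 in null. The 3 groups other than 3 d null overlapped. CG8562 had the widest relative spread among 3 d null arrays, with a coefficient of variation of 18%, against 12.3% for Jon99Fi and 2.88% to 4.5% for the other 5 genes. No single array carried the high values: among the 5 arrays of 3 d null, repeat 1 was highest for 3 genes, repeat 3 for 2, and repeats 4 and 5 for 1 each.

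The low values set the scale on which these differences can be given. Differences were taken on log2(signal + 16), which compresses differences among low signals, so a log2 difference here is smaller than the log2 of the linear ratio. All 5 arrays of 3 d null lay above all 5 of 3 d wild type for each of the 7 genes, which the choice fixed, beside 7.68% of 18769 probe sets. On that scale 3 d null exceeded 3 d wild type by 5.00 ± 0.066 (SE) for Jon99Fi, 4.12 ± 0.07 for Jon25Biii, 3.18 ± 0.063 for alphaTry and 3.18 ± 0.082 for CG8562. The differences were 3.11 ± 0.066 for CG18180, 2.96 ± 0.061 for yip7 and 2.64 ± 0.057 for Jon65Aiii. Jon65Aiii had the smallest difference of the 7 and also the highest signal in 3 d wild type. The median over the 7 was 3.18, beside -0.01 over all 9806 probe sets, as the choice of the genes fixed. With 1 unit added in place of 16 the median was 5.32, and with 64 it was 2.19, so its size depends on this constant.

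In the null line the genes were high at 3 d and low at 20 d, the 2 ages sampled. In null the 20 d mean was 4.98% of the 3 d mean for Jon65Aiii and 5.87% for alphaTry, and for the other 5 genes every 20 d array was below the array medians, so that no such share is given. On the log2(signal + 16) scale the 20 d minus 3 d differences ranged from -2.97 (CG18180) to -4.99 (Jon99Fi), with a median of -3.55, beside 0.02 over all probe sets tested. The arrays of both ages did not overlap for any of the 7, beside 16.4% of all probe sets tested that were wholly lower at 20 d. These values rest on the 3 d null arrays on which the genes were chosen and are given as a description.

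In wild type the same interval split the genes. Jon65Aiii dropped from a mean of 86 ± 4.03 to 15.8 ± 2.11 units, yip7 from 18.7 ± 3.29 to 4.42 ± 1.2 and alphaTry from 32.9 ± 3.36 to 20.9 ± 3.02, and in all 3 the 5 arrays of each age did not overlap, beside 11.0% of all probe sets in that direction. Their log2 differences were -1.68 ± 0.057, -0.76 ± 0.061 and -0.41 ± 0.063. The other 4 genes were at means of 4.07 units or less at 3 d and 7.04 or less at 20 d, and their log2 differences lay between 0.03 and 0.23. Of these, Jon99Fi was at 1.06 ± 0.573 at 3 d and 3.99 ± 0.587 at 20 d, the one of the 4 whose arrays of the 2 ages separated, upward, as did 16.1% of all probe sets. In 3 d wild type these 3 genes were above the array median on 5 arrays (alphaTry), 5 (Jon65Aiii) and 2 (yip7), and the other 4 genes on none. The ageing difference of the null line less that of wild type was negative for all 7, from -2.08 for Jon65Aiii to -5.22 for Jon99Fi. No test is given for these values because the 3 d arrays served in the choice.

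**Figure D2:**
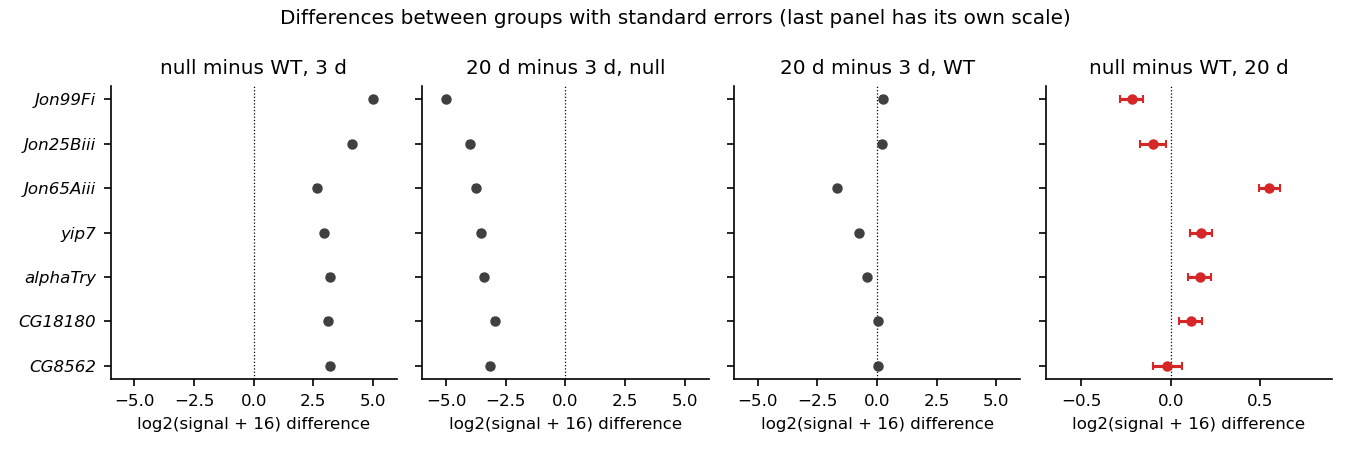
Differences between groups for the 7 genes on the log2(signal + 16) scale with standard errors, in 4 panels of which the last has its own scale. Null exceeded wild type at 3 d by 2.64 to 5.00 and was lower at 20 d than at 3 d by 2.97 to 4.99, while the wild-type change with age lay between -1.68 and 0.23 and the difference of the lines at 20 d between -0.22 and 0.55.

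The comparison of the lines at 20 d shares no array with the choice of the genes. It was tested with limma across all 9806 probe sets with Benjamini-Hochberg adjustment. However, 5 of the 7 genes, yip7 and Jon99Fi included, entered this tested set only through the 3 d null arrays. For these 5 the p-value with all 18769 probe sets and no filter on low values is therefore given first. Jon65Aiii was higher in null, at 30.8 ± 3.94 units against 15.8 ± 2.11 (n = 5 each), a log2 difference of 0.55 ± 0.057 (SE, limma adjusted p = 2.03e-08). yip7 was higher by 0.17 ± 0.061, at 7 ± 0.922 against 4.42 ± 1.2 units (limma adjusted p = 0.0385 with no filter, 0.0247 with it). alphaTry was higher by 0.16 ± 0.063 (limma adjusted p = 0.0451), at 25.1 ± 3.05 against 20.9 ± 3.02. Jon99Fi went the other way, with 1.17 ± 0.972 units for null beside 3.99 ± 0.587 for wild type, both far below the array medians. Its log2 difference was -0.22 ± 0.066 (limma adjusted p = 0.0124 with no filter, 0.00801 with it).

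For the remaining genes the 20 d difference did not pass the threshold. It was 0.11 for CG18180 (95% interval -0.03 to 0.25, limma adjusted p = 0.254 with no filter, 0.187 with it). For Jon25Biii it was -0.10 (-0.25 to 0.04, limma adjusted p = 0.338 with no filter, 0.255 with it). For CG8562 it was -0.02 (-0.19 to 0.15, limma adjusted p = 0.897 with no filter, 0.856 with it). The intervals are from the fit with the filter. Thus 3 of 7 genes were called higher and 1 lower at 20 d, where 20.9% of all probe sets tested were higher, 24.6% lower and 45.5% called in either direction. Of these genes Jon65Aiii and alphaTry would have passed the filter without the 3 d null arrays, and the other 5, yip7 and Jon99Fi included, were in the tested set only through them. With all 18769 probe sets tested and no filter, Jon65Aiii (limma adjusted p = 2.55e-08) and yip7 (0.0385) were called higher and Jon99Fi lower (0.0124), beside 12.5% and 15.3% of all probe sets. The shares of the 7 are not read as a result, since most of them entered through the group on which they were chosen. The 5 arrays of each line did not overlap for Jon65Aiii and yip7, higher in null, and for Jon99Fi, lower in null, beside 15.3% and 17.8% of all probe sets tested in those directions. The difference at 20 d was smaller in size for each of the 7 than the difference at 3 d, which for Jon65Aiii was 2.64. The choice of the genes on high values in 3 d null favoured this, so it is a description only.

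The call for Jon65Aiii held in all 28 alternatives that were run. The call for alphaTry was lost in 12 of 28. It was lost without repeat 1, 3, 4 or 5 of 20 d wild type (limma adjusted p = 0.103, 0.115, 0.0871 and 0.0542) and without repeat 2, 3 or 5 of 20 d null (limma adjusted p = 0.145, 0.0612 and 0.0751). Leaving out repeat 2 or 4 of 3 d null, which enters through the shared spread, gave 0.0522 and 0.0524. It was also lost with no filter on low values (0.0671), with the 20 d arrays alone (0.0884) and with 64 units added to the signal (0.111). In fits with the filter, the call for yip7 was lost without repeat 4 or 5 of 20 d wild type (limma adjusted p = 0.0548 and 0.0763). It was also lost without repeat 1 or 4 of 20 d null (limma adjusted p = 0.0573 and 0.051) and with 64 units added (0.129). That for Jon99Fi was lost with 64 units added (0.311). Apart from Jon65Aiii, therefore, the 20 d calls concern signals within a few units of each other near or below the array median.

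The 7 genes were not alone in being high in 3 d null. The further members of the Jonah and trypsin families and of a list of other digestive enzymes, chosen with earlier results of these arrays known, came to 50 measured genes. For 29 of the 50 all 5 arrays of 3 d null lay above all 5 arrays of 3 d wild type, and for none below. Over all 18769 probe sets, 7.68% separated in that direction and 7.75% in the other. The median log2 difference over the 50 was 0.32, beside 0.00 for all probe sets. Of the 50, 17 passed the expression filter and 12 of those did so only through the 3 d null arrays, so their number of calls is not read as a result.

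Among 10 further Jonah genes 9 separated upward at 3 d. Jon65Aiv was at 8.68 ± 0.605 units in young wild type and 134 ± 14.9 in young null, 2.59 ± 0.063 apart on the log2 scale. Jon99Ci was at 1.12 ± 1.05 and 78 ± 3.11 units, and Jon44E at 4.71 ± 1.44 and 83.1 ± 4.94. The sizes differed widely within the family: Jon66Ci was at 4.73 ± 2.22 and 8.44 ± 0.712 units, and Jon66Cii, the Jonah gene that did not separate, at 2.48 ± 1.35 and 2.15 ± 1.57.

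Of 9 further trypsin genes 5 separated upward at 3 d. thetaTry had 1.47 ± 0.759 units in young wild type and 113 ± 25.2 in young null, and betaTry at 14.3 ± 1.76 and 153 ± 6.72. Try29F, a trypsin gene that was well measured in all groups, was at 109 ± 3.87 and 107 ± 8.72 units, a log2 difference of -0.03 ± 0.048 (limma adjusted p = 0.726). The increase at 3 d was therefore not found in every trypsin gene with a measurable signal.

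Among 31 further enzymes 15 separated upward at 3 d, and they were not limited to proteases. The lipase gene mag, which encodes the gut lipase magro, was at 0.958 ± 0.571 units in young wild type against 83.2 ± 8.1 in young null. The maltase gene Mal-A1, of starch and sugar digestion, was at 5.2 ± 0.8 and 91.6 ± 5.05 units, and CG8560, which lies close to CG8562, at 16.1 ± 2.01 and 122 ± 10.8. Mal-A5, another gene of the maltase group, had limma adjusted p = 0.66 at a log2 difference of 0.02.

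**Figure D3:**
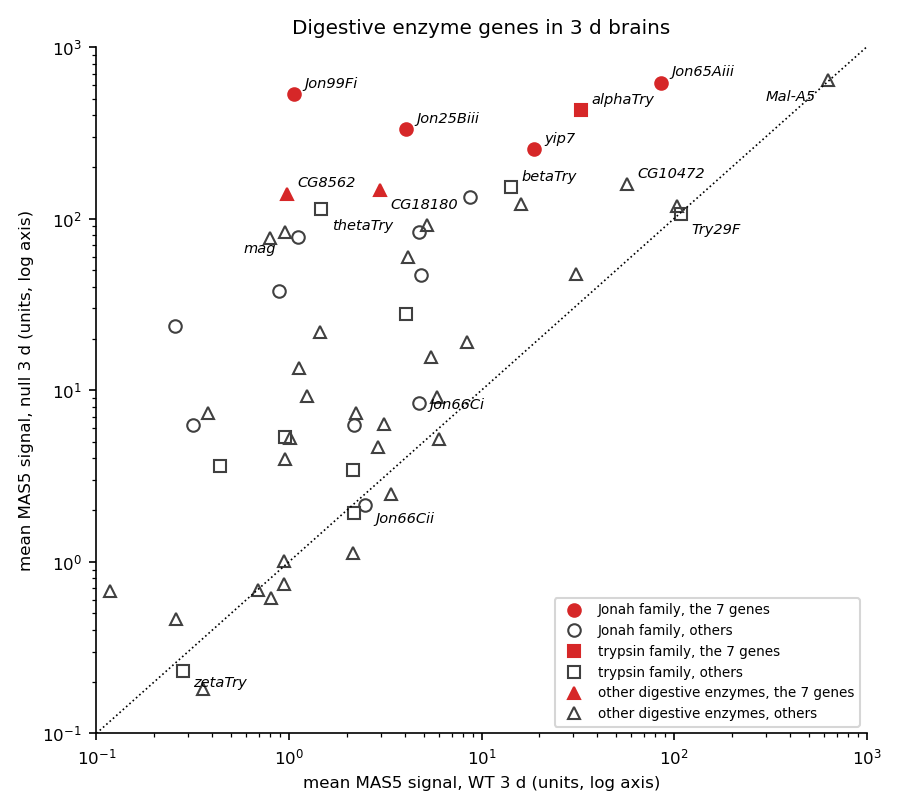
Mean MAS5 signal in 3 d null against 3 d wild type (both log axes, 5 arrays each) for every measured gene of the Jonah, trypsin and other digestive enzyme lists, with the 7 genes filled and the line of equality dotted. CG8562, Jon99Fi, CG18180 and Jon25Biii lie at the left among the filled points, with 3 d wild-type means of 0.982, 1.06, 2.97 and 4.07 units. Try29F and Mal-A5 lie on the line of equality.

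At 20 d the same 50 genes showed no common direction. In null 6 lay wholly above wild type and 3 wholly below, where 9.35% and 11.6% of all probe sets did so. Jon65Aiv was at 8.92 ± 1.18 units in null and 4.49 ± 1.51 in wild type, and betaTry at 12.3 ± 2.5 and 7.37 ± 1.47, all below the array medians. CG10472, a predicted serine protease gene, was lower, at 40.6 ± 2 units against 89.5 ± 2.25, a log2 difference of -0.90 ± 0.047 (limma adjusted p = 1.14e-13), although it had been higher in null at 3 d. LManI, an alpha-mannosidase gene, was higher by 0.72 ± 0.06 (limma adjusted p = 7.36e-10). The maltase gene Mal-A6 was at 17.5 ± 1.59 and 7.81 ± 1.33 units, and no call is given for it, Jon65Aiv or betaTry, which owed their place among the tested probe sets to the arrays of young null.

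In wild type, some of the 31 further enzymes changed with age in the other direction than Jon65Aiii, yip7 and alphaTry, and the rest overlapped between the ages. Of the 31, 14 lay wholly higher at 20 d than at 3 d and none wholly lower, beside 16.1% and 11.0% of all probe sets. The log2 differences were largest for the maltase gene Mal-B2 (1.63 ± 0.066, from a mean of 104 to 357 units), Mal-A1 (0.93 ± 0.053, from 5.2 to 24.3) and LManI (0.88 ± 0.06, from 30.8 to 69.9), among the 9 of the 31 that passed the filter, 5 of them, Mal-A1 included, owing to the arrays of young null. Of the 10 further Jonah genes, 1 lay wholly lower at 20 d (Jon65Aiv) and none wholly higher, and of the 9 further trypsins 1 lay wholly lower (betaTry) and 1 wholly higher. Other genes of the same clusters overlapped between the ages, with log2 differences of 0.13 for Jon65Ai, 0.01 for Jon65Aii, 0.08 for epsilonTry and -0.07 for thetaTry. Whether the 2 kinds of enzyme differ in their change with age was not tested. In null, thetaTry, betaTry and Jon65Aiv had log2 differences of -2.80, -2.58 and -2.58 between 20 d and 3 d.

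Gene order in the assembly Release 6 plus ISO1 MT places the 7 genes on chromosome arms 2L (Jon25Biii), 2R (alphaTry), 3R (Jon99Fi) and 3L (the other 4). That assembly served for gene order only, because no source used here names the build behind the array. On 3L, the run CG10477, yip7, CG6462, Jon65Aiv, Jon65Aiii, Jon65Aii, Jon65Ai held 7 adjacent genes. In each the 3 d null arrays lay wholly above the 3 d wild-type arrays, as did 7.68% of all probe sets. For yip7 and Jon65Aiii the choice fixed this. Before the run, alphaKap4 was at 0.2 units in young wild type and 0.257 in young null, and the arrays overlapped. After the run, tant was at 205 units in young wild type against 193 in young null, and the arrays overlapped too. Means in 3 d null along the run ranged from 4.07 units for CG6462 (1.36 in 3 d wild type) to 619 for Jon65Aiii (86).

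The other loci were more mixed. In the trypsin cluster on 2R, thetaTry, alphaTry, epsilonTry and betaTry were consecutive and all wholly higher in 3 d null, which for alphaTry the choice fixed. The genes next in order, zetaTry (0.281 and 0.232 units) and etaTry (2.16 and 3.42), overlapped. At CG8562 the adjacent genes CG32379 (1.22 and 1.11 units) and CG18417 (0.51 and 1.85) overlapped, and CG8560, the gene after CG18417, was wholly higher. Beside CG18180 its neighbour CG18179 was wholly higher at 0.378 and 7.37 units, and CG8329, next to that, was wholly lower at 8.03 and 1.13. Jon25Bii and Jon25Bi, which follow Jon25Biii on 2L, were at 6.26 units in 3 d null against 2.18 and 0.316 in 3 d wild type. Of the flanking genes of other kinds, jet, fry and PH4alphaSG2 were among those that overlapped between the lines at 3 d. Wholly lower in null were PH4alphaEFB (521 and 472 units), PH4alphaNE1 (33.2 and 24.2), Marcal1 (30.7 and 22.9), PVRAP (545 and 366) and CG42458 (192 and 143). Only CG16717 (171 and 208) was wholly higher. Over all probe sets 7.75% were wholly lower and 7.68% wholly higher.

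**Figure D4:**
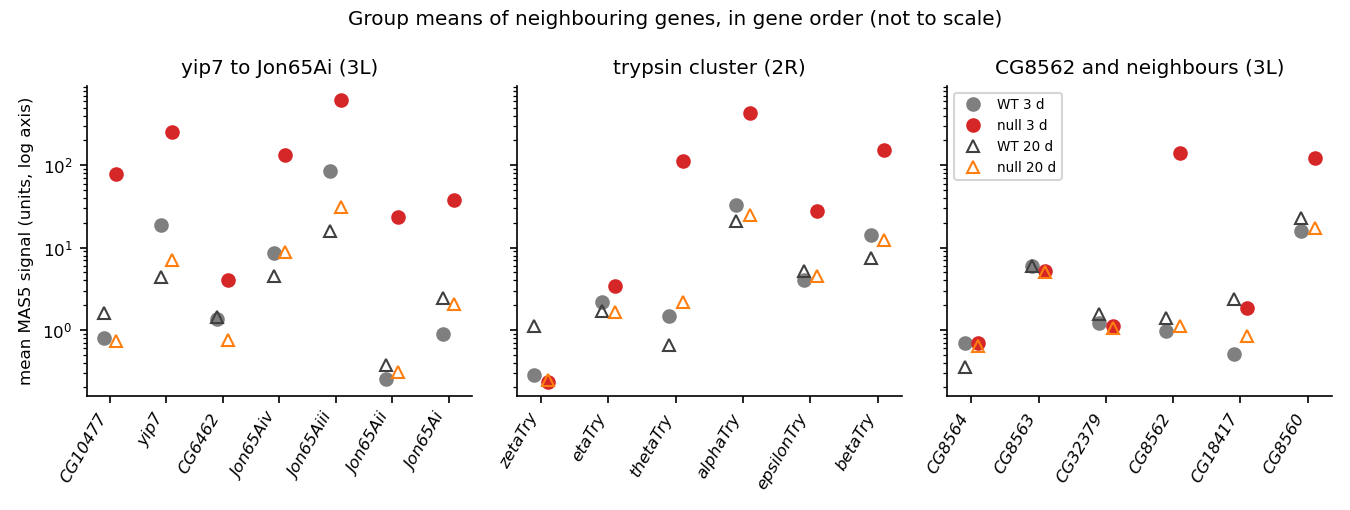
Group means (MAS5 signal, log axis) of adjacent genes in gene order, not to scale, for the run from CG10477 to Jon65Ai on 3L, the trypsin cluster on 2R and the genes around CG8562 on 3L, with circles for 3 d and triangles for 20 d. Red circles (3 d null) lie above the other symbols for all 7 genes of the first panel, from thetaTry to betaTry in the second, and for CG8562 and CG8560 but not CG8563 or CG8564 in the third.

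Many of these genes are close paralogues. The probe sequences were not used here, so cross-hybridisation between Jonah genes, or between alphaTry and betaTry, was not tested. Jon99Fii, the gene next to Jon99Fi, and gammaTry and deltaTry were not analysed here.

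A search for patterns like that of the 7 covered the genes with a single symbol whose probe set passed the filter. It ranked 10 others by their Pearson correlation, over the 20 arrays, with the mean standardised log2 signal of the 7. Genes below the filter were not ranked. The points fall into 4 groups, of which 3 d null stands apart, so these correlations describe that contrast. The 10 were betaTry (r = 0.9958), CG17633 (0.9954), Jon65Aiv (0.9947), CG14500 (0.9939), Jon44E (0.9929), CG10477 (0.9927), CG13102 (0.9924), CG42397 (0.9912), Jon99Ci (0.9911) and Jon74E (0.9907). Of these, betaTry, CG10477 and the 4 Jonah genes are in the digestive lists. CG17633 (3.48 ± 1.94 units in 3 d wild type, 101 ± 5.37 in 3 d null), CG14500, CG13102 and CG42397 are not. Of the 7 genes themselves, Jon65Aiii had the lowest correlation with this mean, 0.9564, and alphaTry the highest, 0.9986.

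Over the whole array, 23 of 18769 probe sets had a 3 d null mean at least 2 log2 units above the mean of each of the other 3 groups. The 7 genes were among them, as were thetaTry, Jon65Aiv, betaTry, CG10477, Jon99Ci, Jon44E and mag from the digestive lists. The remaining 9 were CG3868, CG13947, CG17633, CG18493, CG3819, CG11458, CG42397, Acbp5, an acyl-CoA binding protein gene, and 1 probe set with several symbols. Jon65Aiii had the smallest margin of the 7, 2.64, because of its signal in young wild type.

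Because digestive proteases mark the gut, markers of gut and of other tissues were read beside them. Among 8 measured genes of midgut identity, mex1, expressed in the midgut epithelium, had 4.1 ± 1.72 units in young wild type against 14 ± 3.51 in young null, and the midgut transcription factor gene GATAe at 1.77 ± 0.631 and 6.76 ± 2.34. Both separated upward without overlap, as did 7.68% of all probe sets, and the other 6, Ptx1, nub, cad, esg, fkh and hkb, overlapped. The summed signal of the 8 genes ran from 330 to 363 units in 3 d wild type and from 338 to 383 in 3 d null. Most of it came from fkh, a gene also used outside the gut (220 and 217 units), Ptx1 (82.6 and 83.4) and nub (29.9 and 24.4). The sums therefore say little of mex1 and GATAe. Of the 8 genes, 5 were under 5 units in young wild type against 3 in young null. At 20 d the summed signals were 317 to 387 units in wild type and 322 to 403 in null. There GATAe was wholly lower in null (0.901 against 4.67 units), beside 11.6% of all probe sets. Wholly higher in null were esg (9.55 against 4.94) and Ptx1 (82.3 against 68), beside 9.35%. The others overlapped.

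Next came 13 genes of the proventriculus and peritrophic matrix, the chitin-rich lining of the gut. Of these, 5 separated upward at 3 d and none downward, beside 7.68% and 7.75% of all probe sets. Cht9, a chitinase gene, rose by 2.05 (15.8 ± 1.32 to 116 ± 5.62 units, limma adjusted p = 1.08e-19), Cht8 by 1.21 (limma adjusted p = 2.21e-14) and Cht4 by 1.13 (limma adjusted p = 4.36e-13). The summed signal of the 13 genes was 795 to 917 units in 3 d wild type, 1558 to 1772 in 3 d null, 1748 to 1909 in 20 d wild type and 261 to 276 in 20 d null. Muc68D alone gave means of 701, 1321, 1094 and 154 units of it, in that order. The summed signal thus followed another course than the 7 genes, since it was high in 20 d wild type, where the proteases were low. The single genes differed: Muc68D and Cht9 (116 and 55.8 units) were higher in 3 d null than in 20 d wild type. Cht4 (44.1 and 170) and Cht8 (92.1 and 231) were lower. With age in wild type 5 of the 13 lay wholly higher and 1 wholly lower, beside 16.1% and 11.0% of all probe sets. At 20 d 5 of the 13 lay wholly below wild type in null, beside 11.6% of all probe sets, Muc68D at 154 against 1094 units.

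Muscle genes were also higher in young null brains. Of 16 tested, 15 were called higher at 3 d and none lower, where 15.4% and 18.4% of all probe sets tested were. Mlp60A (log2 difference 1.38), the paramyosin gene Prm (1.36) and the troponin C gene TpnC41C (1.34) led. The summed signal of the 17 measured muscle genes was 1481 to 1602 units in 3 d wild type, 2559 to 2641 in 3 d null, 2068 to 2175 in 20 d wild type and 2255 to 2336 in 20 d null. At 20 d, 9 of the 16 were called higher and 4 lower in null, beside 20.9% and 24.6% of all probe sets tested.

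Fat body genes went mostly the other way at 3 d, with 1 of 9 tested called higher and 5 lower. Over all probe sets tested 15.4% were called higher and 18.4% lower, the shares for each list below. The largest differences were those of Obp99b (-2.17), tobi (1.11) and Lsp2 (-0.99). The summed signals of the fat body genes were 4569 to 4856 units in wild type and 3756 to 4014 in null. Of 10 haemocyte genes 2 were higher and 2 lower at 3 d (Sr-CI at 0.48, Hml at -0.41 and NimC1 at 0.27), and their sums were 1391 to 1504 and 1365 to 1466 units. Of 2 Malpighian tubule genes tested, Irk3 was higher by 0.13 (limma adjusted p = 0.04), with the list at 719 to 775 and 789 to 856 units. Among brain cell markers Rdl (0.36) and VGlut (0.24, limma adjusted p = 0.0489) were called higher of 12 neuronal genes. Of 6 glial genes wrapper (0.19) was called higher, and no gene of either list was lower. With no filter 1 neuronal and 0 tubule genes were called higher. The few calls in the haemocyte, tubule, neuronal and glial lists are not read as a result. The neuronal sums were 12326 to 13225 units in young wild type against 11892 to 13828 in young null, and the glial sums 7959 to 8300 and 7809 to 8704. In bulk samples, fewer cells of a type and less RNA per cell cannot be told apart. The part of gut or other tissue in the values of the 7 genes was not tested.

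**Figure D5:**
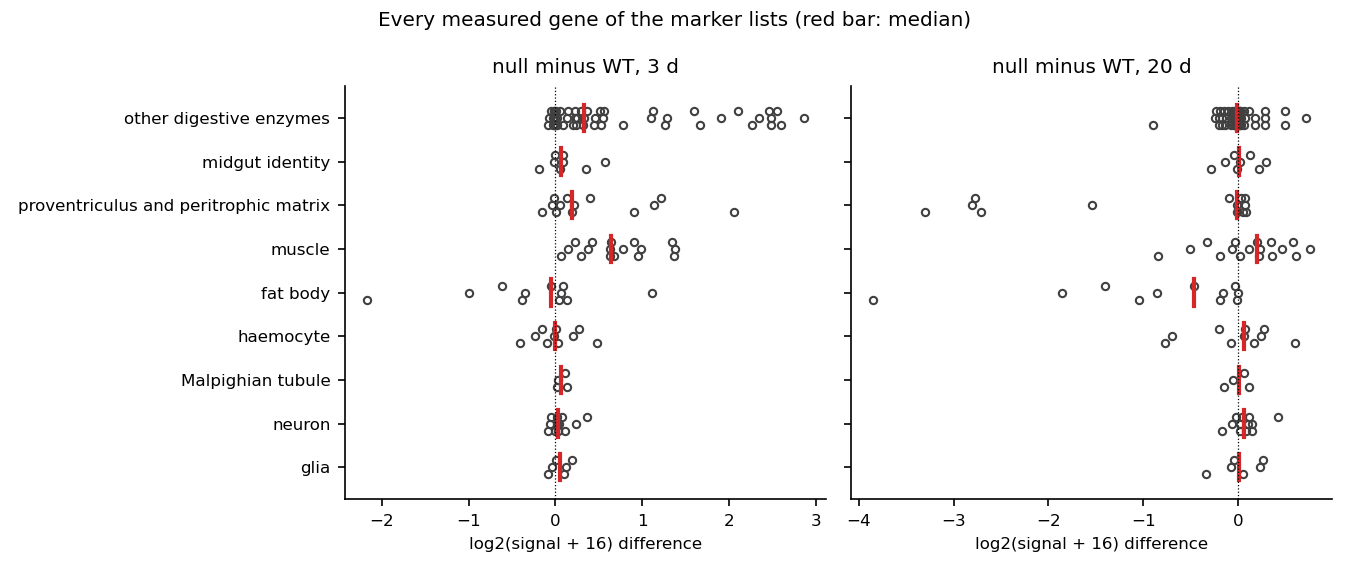
Difference between null and wild type at 3 d (left) and 20 d (right), on the log2(signal + 16) scale, for each measured gene of the digestive lists without the 7 genes and of 8 marker lists, with a red bar at the median of each list. At 3 d the digestive genes spread upward to 2.86 and the muscle genes had a median of 0.64, while at 20 d digestive genes lay around 0 and genes of the proventriculus and peritrophic matrix reached -3.30.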

How the data were processed

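Total RNA of dissected brains was hybridised to 20 arrays, 1 biotin-labelled sample each. The deposited values are intensity values, 1 per probe set and array; the submitters' processing notes list MAS5 and GCRMA, and the sample descriptions name MAS5 files. They are linear and have a 2% trimmed mean of 150 on every array, and were used as deposited. Scanner and software settings were not stated. Of 18952 probe sets, 183 controls were left out, leaving 18769. The platform annotation gave a single symbol for 13647 of them, several for 402 and none for 4720.

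Signals were analysed as log2(signal + 16). Probe sets above their array's median on at least 5 arrays were kept, 9806 in all, including all 7 genes, 5 of which (all but Jon65Aiii and alphaTry) passed only through the 3 d null arrays. One model with 4 group means over all 20 arrays was fitted with limma 3.58.1 under R 4.3.3, using a robust eBayes step with an intensity trend, and with Benjamini-Hochberg adjustment per contrast and a threshold of 0.05. For genes below the filter, p-values and differences come from the same fit without the filter. The model was tested on simulated data. The genes and the 11 lists (151 entries, 25 with no probe set of their own) were chosen with earlier results of these data known. Named genes were the 7 genes, up to 3 with large changes in each list, and the 10 most alike in pattern; further genes of the lists and neighbours were picked after their values were seen. For genes with several probe sets the one with the highest mean signal was used. No sequences were used here, so the planned comparison of similar proteins was not made.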

Additional observations from a re-analysis of the deposited data

Results flagged for a closer look

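In 28 groups of 5 arrays, 6 single arrays stood apart from their group by Dixon's test, which flags about 1 group in 20 by chance. Jon25Biii was lowest in repeat 1 of 3 d wild type at 0.437 units, lowest in repeat 4 of 3 d null at 314 and highest in repeat 5 of 20 d null at 8.6. CG18180 was highest in repeat 2 of 3 d wild type at 5.95 units. CG8562 was highest in repeat 3 of 3 d wild type at 3.11 and in repeat 2 of 20 d wild type at 3.08. All but the value of 314 are far below the array medians.

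Jon99Fi differed in opposite directions: all 20 d null arrays lay below all 3 d null arrays, all 20 d wild-type arrays lay above all 3 d wild-type arrays, and null lay above wild type at 3 d and below it at 20 d. Outside 3 d null its means were 3.99 units or less, far below the array medians. There the log2 differences were 0.23 with age in wild type and -0.22 between the lines at 20 d. The 20 d call was lost with 64 units added to the signal (limma adjusted p = 0.311). The ageing difference of the null line less that of wild type was -5.22 on the log2 scale, with -4.99 from the null line. This difference was not tested, since the 3 d arrays served in the choice of the gene.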

How the results depend on the processing

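The alternatives were other constants added to the signal, no filter, quantile normalization, median centring, plain eBayes, the 2 compared groups alone, the repeat number as a block, and leaving out each array. The median log2 difference over the 7 genes moved with the constant: with 1 unit it was 5.32 at 3 d, 0.26 at 20 d, -5.0 with age in null, 0.19 with age in wild type and -4.90 for the change with age in null minus wild type, and with 64 units 2.19, 0.03, -2.46, 0.01 and -1.94. Median centring gave -3.64 with age in null, and turned the wild-type median from 0.03 to -0.07. At 20 d, 64 units left 1 gene higher and 0 lower of 7 (limma, and 0 lower also at an unadjusted p under 0.05). Leaving out single arrays gave 1 to 3 higher and 1 lower, with medians from 0.08 to 0.15 at 20 d and from 0.00 to 0.04 with age in wild type. Among the 50 further digestive genes, no filter gave 31 higher at 3 d against 14, 10 lower at 20 d against 3, 6 higher and 28 lower with age in null against 3 and 13, and 17 higher with age in wild type against 8, since more genes were tested. The counts with the filter cover 17 genes, of which 12 passed only through the 3 d null arrays, so they are given for the setting alone. Those with no filter are also given for the setting alone and are not read as a result. At 20 d 15.3% of all 18769 probe sets were called lower with no filter. Quantile normalization gave 1 of the further digestive genes lower at 20 d, and the cause was not tested. Repeat numbers were not taken as pairs, since not every same-numbered pair had deviations correlated over 0.1: r ran from -0.184 to 0.315 between lines, from -0.143 to 0.195 between ages in wild type and from -0.103 to 0.554 between ages in null, where repeats 1, 3 and 5 of 20 d were the best partners of their own numbers. With the replicate block 3 genes were higher and 1 lower at 20 d, as without it. Signals below the array median limit what can be said of the 4 genes below it on all arrays outside 3 d null.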
